A study of Mus musculus with 8 samples.

Results

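Malat1, Neat1, Kcnq1ot1, Gas5, Snhg1, Snhg12 and Dancr are long non-coding RNAs (lncRNAs), transcripts that make no protein. They were taken by symbol from the deposited counts, and all 7 of the 7 listed were present among 23171 genes. Per the labels, RNA came from keratinocytes of mouse epidermis to which imiquimod had been applied, a drug that sets off psoriasis-like inflammation through Toll-like receptors. The groups were 4 libraries from mice with a knockout of Hnrnpu restricted to the epidermis (cKO) and 4 from control mice (WT), all with the same batch label; whether the controls carried a floxed allele or a Cre is not stated. Both genotypes received imiquimod, and untreated skin was not analysed here. The labels and design text name no driver of the deletion, deleted exons, strain, age or sex.

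Hnrnpu encodes hnRNP-U, also called SAF-A, a nuclear RNA-binding protein of the nuclear matrix that is known to hold Xist and other nuclear RNAs near chromatin. Malat1 is kept in nuclear speckles, and the long form of Neat1 is the scaffold of paraspeckles. Kcnq1ot1 is an imprinted antisense transcript that silences neighbouring genes on the paternal chromosome. Gas5, Snhg1, Snhg12 and Dancr are hosts of small nucleolar RNAs (snoRNAs), which are cut out of their introns and guide chemical modification of ribosomal RNA. The spliced host RNA of Gas5 and of several Snhg genes is known to be destroyed by nonsense-mediated decay during translation.

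The 3' ends of Malat1 and of long Neat1 are formed without a poly(A) tail. U-rich and A-rich stretches fold there into a triple helix that protects the RNA. These stretches are shown because they form the helix that keeps the RNA stable. Libraries were made from total RNA with a kit whose RNA selection step (poly(A) capture or removal of ribosomal RNA) the labels do not name, and the part of that step in the Malat1 and Neat1 counts was not tested. The sequences are from the longest GENCODE M21 transcript of each gene (GRCm38, minus strand, chr19:5795978-5796072 and chr19:5824708-5824765), with U written as T. Capitals mark the U-rich letters TTTTTCTTTT and TTTTGCTTTT and the runs of at least 4 A, with the GC between 2 such runs included.
Malat1: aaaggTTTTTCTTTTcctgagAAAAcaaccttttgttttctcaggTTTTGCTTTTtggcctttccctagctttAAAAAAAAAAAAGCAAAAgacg
Neat1: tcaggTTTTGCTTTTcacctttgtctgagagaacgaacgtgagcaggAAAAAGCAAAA
The Neat1 transcript ends with the printed stretch, while that of Malat1 continues for 288 bases. TTTTGCTTTT was found on the sense strand in 0.298% of the last 400 bases of 122312 GENCODE transcripts and on the antisense strand in 0.311%, and both lncRNAs held it on both strands. TTTTTCTTTT was found in 1.10% on the sense and 1.35% on the antisense strand, and of these transcripts only that of Malat1 held it, on the sense strand.

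The snoRNA hosts are known as transcripts that start with a pyrimidine tract, as ribosomal protein mRNAs do. Their RefSeq start regions (GRCm38.p6, 10 bases before to 20 after the start) are shown for that reason, with CTTTC in capitals.
Gas5, chr1:161034591-161034620, plus strand: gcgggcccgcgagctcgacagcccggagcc
Gas5, chr1:161035156-161035185, plus strand: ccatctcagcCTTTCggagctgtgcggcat
Snhg1, chr19:8723477-8723506, plus strand: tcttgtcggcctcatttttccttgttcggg
Snhg12, chr4:132308668-132308697, plus strand: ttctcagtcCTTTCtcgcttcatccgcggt
Dancr, chr5:74093050-74093079, plus strand: ctcggggggggggggcagctccgcccctct
CTTTC or CTTTT was found on the sense strand at the downstream Gas5 start and at the Snhg12 start. Counted from any of the first 5 transcribed bases, the longest run of C and T was 9 bases in Snhg1, 6 in Snhg12, 3 and 5 at the upstream and downstream Gas5 starts and 0 in Dancr. Of 32851 RefSeq promoters, 6.63% held either on the sense and 6.22% on the antisense strand of this window. Of the 7 lncRNAs, 6, all but Neat1, had an entry in that set. GENCODE places 9 snoRNA loci inside Gas5 (among them Snord47, Snord78 and Snord80) and 8 inside Snhg1 (among them Snord22). Snhg12 holds 4, Snora16a, Snora44, Snora61 and Snord99, and Dancr holds 1, Snora26.

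The 8 libraries held 37158621 to 38865722 counts. Hnrnpu stood at 190, 373, 355 and 312 CPM (reads scaled to library size) in cKO replicates 1 to 4 and at 424 to 455 CPM in WT. All cKO libraries lay below all WT libraries, at 43.4% to 85.3% of the WT mean, but the edgeR quasi-likelihood test did not pass (log2 fold change -0.51 ± 0.19 SE, adjusted p = 0.191). The count covers the whole gene, so reads outside a deleted part would still be in it. Keratinocyte markers summed to 59575 to 86551 CPM in cKO and 66822 to 88662 CPM in WT, against at most 9.92 CPM for fibroblast and 5.38 CPM for skeletal muscle markers in any library. Summed melanocyte markers were higher in every cKO library (59.7 to 118 CPM) than in WT (34.3 to 52.2 CPM), none of the 6 at 0 throughout. Summed endothelial markers were lower (0.965 to 1.90 against 2.49 to 3.05 CPM), none of the 5 at 0 throughout. In 11.1% of single tested genes the libraries of the genotypes did not overlap either. The list taken for neutrophils (S100a8, S100a9, Csf3r, Cxcr2, Retnlg and Mmp9) summed to 1647 to 9519 CPM in cKO and 3722 to 17141 CPM in WT, none of the 6 at 0 throughout. Its genes were not separated, and which cells made them was not tested, so the sum is no measure of neutrophil content. T cell markers summed to 7.16 to 22.3 CPM in cKO and 6.99 to 40.4 CPM in WT. Myeloid and Langerhans markers summed to 26.3 to 69.5 CPM in cKO and 46.4 to 48.3 CPM in WT. At an edgeR adjusted p below 0.05, 1 of the 6 melanocyte and 1 of the 6 neutrophil markers were called. Of the other markers given here 0 were called, against 1.32% of all tested genes. The part of these cells in the results was not tested. In these bulk samples, fewer cells of a type and less RNA per cell cannot be told apart.

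None of the 7 lncRNAs differed between the genotypes by the edgeR test at an adjusted p below 0.05, where 1.32% of the 14004 tested genes were called, 94 higher and 91 lower in cKO. All 7 passed the filter on low counts. An unadjusted p below 0.05 was found for 1 of the 7, Snhg12, against 18.6% of all tested genes. DESeq2 called 0 of the 7 against 8.1% of its tested genes, and limma-voom called 0 of the 7 against 1.21%. In 0 of the 7 did the cKO libraries lie apart from the WT libraries, as they did in 11.1% of tested genes. Positive log2 fold changes, cKO over WT, were found for 4 of the 7 and for 51.9% of tested genes. All 7 values ran from -0.37 to 0.10 with a median of 0.06, beside a median of 0.01 over all tested genes.

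Levels of different genes were compared on the deposited FPKM, which divides by gene length. Gas5 was highest at 317 ± 62.6 FPKM (SD, n = 8 libraries) and ranked 218 of all 23171 genes. Snhg1 followed at 226 ± 36.7 FPKM and was below Gas5 in 8 of 8 libraries, although their ranges over libraries overlapped. Neat1 (52.9 ± 10.8 FPKM) and Snhg12 (47.6 ± 9.97 FPKM) did not differ beyond their spread, Neat1 being the higher in 5 of 8 libraries. Snhg12 was above Malat1 (26.9 ± 6.13 FPKM) in 7 of 8 libraries with overlapping ranges. Dancr, at 12.6 ± 2.69 FPKM, lay below Malat1 in every library. Kcnq1ot1 was lowest, at 0.0288 ± 0.00655 FPKM. The length by which FPKM divides was 20773 bases for Neat1 and 83437 for Kcnq1ot1, but 620 for Gas5, 476 for Snhg1 and 606 for Snhg12. Reads of the short and long forms of Neat1 are summed in its count, so this level is not that of either form.

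**Figure D1:**
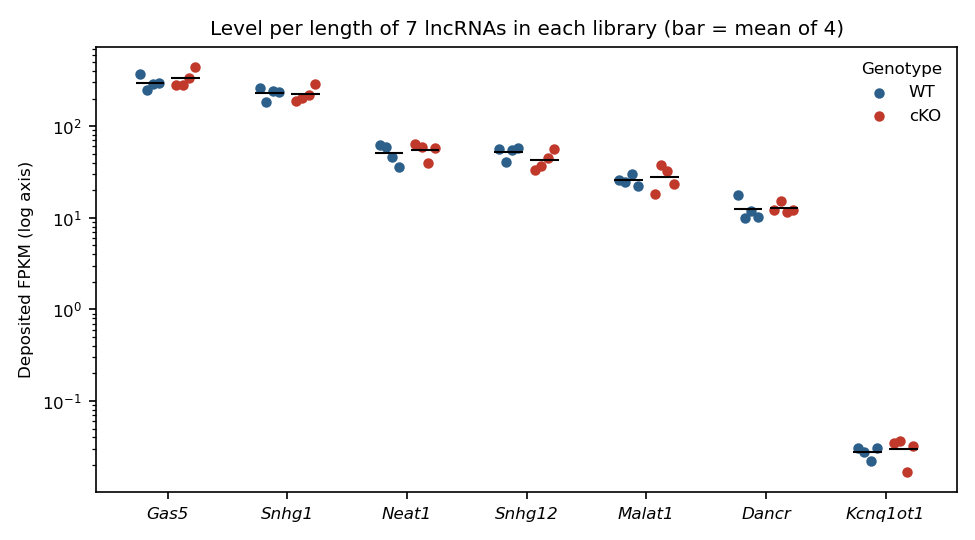
Deposited FPKM of the 7 lncRNAs on a log axis, each point a library, blue for WT and red for cKO, bars at the mean of 4. Gas5 and Snhg1 lie above the other members in every library, and Kcnq1ot1 lies below 0.04 FPKM throughout.

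Malat1, the speckle lncRNA, was measured at 128, 279, 212 and 152 CPM in cKO replicates 1 to 4 and at 180, 177, 221 and 161 CPM in WT replicates 1 to 4. The cKO libraries surrounded the WT range, with replicates 1 and 4 below all WT libraries and replicate 2 above them. The means were 193 ± 67.9 and 185 ± 25.8 CPM (SD, n = 4 each). The log2 fold change was 0.06 ± 0.23 (SE; edgeR adjusted p = 0.923), and its 95% confidence interval spans 0.729 to 1.49 times the WT level. The exact permutation p was 0.971, two-sided over 4 against 4 libraries, where 0.0286 is the smallest possible.

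Neat1, the paraspeckle scaffold, stood at 1313, 1313, 773 and 1122 CPM in cKO replicates 1 to 4 and at 1279, 1254, 1005 and 753 CPM in WT replicates 1 to 4. The 2 lowest libraries were cKO replicate 3 and WT replicate 4. Between genotypes the log2 fold change was 0.08 ± 0.21 (SE; edgeR adjusted p = 0.890), with an interval of 0.756 to 1.47 times WT. Neat1 alone took 0.0736% to 0.132% of a library's counts, out of 0.124% to 0.189% for the 7 lncRNAs together.

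Malat1 and Neat1 lie next to each other on the chromosome, but high and low libraries differed between them. The FPKM of Neat1 was 3.46, 1.58, 1.23 and 2.49 times that of Malat1 in cKO replicates 1 to 4, and 2.39, 2.38, 1.53 and 1.57 times in WT replicates 1 to 4. The cKO ratios ran both lower and higher than any WT ratio (exact permutation p = 0.771, two-sided). Frmd8, a protein-coding gene nearby whose product binds the rhomboid-like iRhom proteins, was at -0.31 ± 0.11 on the log2 scale (SE; edgeR adjusted p = 0.179), from 41.9 ± 3.01 (SD) CPM in cKO against 51.8 ± 6.35 in WT.

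Kcnq1ot1 had 54 to 116 reads per library. It stood at 2.86, 3.25, 1.30 and 2.47 CPM in cKO replicates 1 to 4 and at 2.52, 2.38, 1.92 and 2.65 CPM in WT replicates 1 to 4. The cKO replicate 3 lay below all WT libraries, and the other cKO libraries lay within or above the WT range. The log2 fold change of 0.06 ± 0.30 (SE; edgeR adjusted p = 0.940) has an interval of 0.658 to 1.65 times WT, the widest of the 7. Without a stated strand setting, reads of Kcnq1ot1 and of unspliced Kcnq1, the potassium channel gene it lies within on the other strand, cannot be told apart. Kcnq1 itself had 0 reads in 7 of 8 libraries and 2 in WT replicate 3.

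The genes around Kcnq1ot1 were examined as a list. Of 13 genes of the imprinted domain, 10 were tested, 3 with a positive and 7 with a negative log2 fold change (median -0.16), and 0 were called by edgeR or DESeq2 (1.32% and 8.1% of all tested genes). An unadjusted p below 0.05 was found for 2 of the 10, against 18.6% of all tested genes. Cdkn1c, the cell cycle inhibitor that Kcnq1ot1 is known to silence, was at 0.415 ± 0.290 (SD) CPM in cKO against 0.725 ± 0.320 in WT (-0.80 ± 0.58 SE on the log2 scale, edgeR adjusted p = 0.503). The most abundant members were Osbpl5, a lipid transfer protein gene (0.19 ± 0.12, adjusted p = 0.425), and Nap1l4, a histone chaperone gene (-0.27 ± 0.09, adjusted p = 0.156), whose cKO and WT libraries did not overlap.

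**Figure D2:**
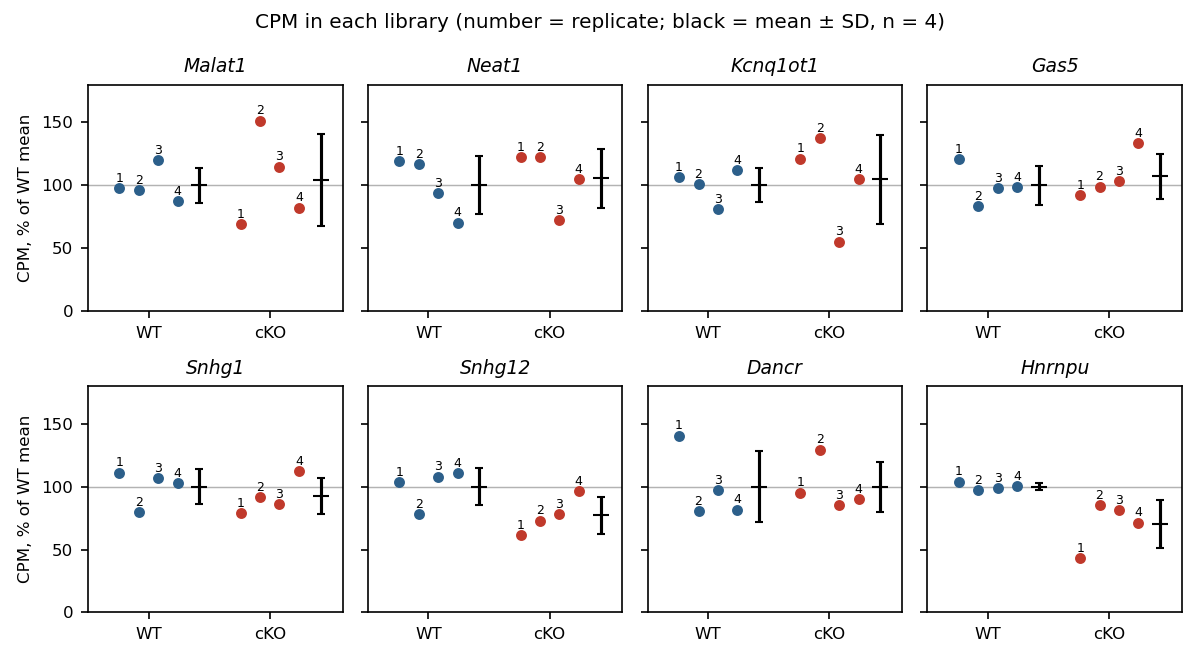
CPM of each lncRNA and of Hnrnpu in every library as a percentage of the WT mean, numbered by replicate, with mean ± SD of 4 in black. Only Hnrnpu has all cKO libraries below all WT libraries. Malat1 and Kcnq1ot1 run from 69.1% to 151% and from 55.1% to 137% over the cKO libraries.

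With the 2 genotypes pooled, the snoRNA hosts varied less between libraries than Malat1, Neat1 and Kcnq1ot1, an order that WT alone did not show. The pooled within-genotype SD of log2 CPM was 0.22 for Snhg1, 0.23 for Gas5, 0.25 for Snhg12 and 0.33 for Dancr, against 0.36 for Neat1, 0.38 for Malat1 and 0.43 for Kcnq1ot1. Over all tested genes these stand from the 41.3rd percentile (Snhg1) to the 71.5th (Kcnq1ot1), so none is extreme. For Malat1 the SD was 0.50 in cKO and 0.19 in WT, and for Kcnq1ot1 0.57 and 0.20. In WT both lay below every host, the hosts being at 0.22 (Snhg1), 0.22 (Gas5), 0.23 (Snhg12) and 0.37 (Dancr). Neat1 was at 0.36 in WT, below Dancr. Differences in spread were not tested.

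Gas5, named for growth arrest and known as a decoy of the glucocorticoid receptor, stood at 174, 186, 195 and 252 CPM in cKO replicates 1 to 4 and at 228, 157, 185 and 185 CPM in WT replicates 1 to 4. The highest library was a cKO and the lowest a WT library, with the others between. Gas5 gave a log2 fold change of 0.10 ± 0.15 (SE; edgeR adjusted p = 0.782), an interval of 0.847 to 1.35 times WT. Its neighbour on the other strand, the zinc finger gene Zbtb37, was at 0.29 ± 0.17 (adjusted p = 0.395).

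Snhg1, host of the U22 snoRNA Snord22, stood at 88.5, 103, 96.2 and 126 CPM in cKO replicates 1 to 4 and at 124, 89.0, 119 and 115 CPM in WT replicates 1 to 4. Its cKO libraries covered the whole WT range. Snhg1 gave a log2 fold change of -0.12 ± 0.14 (SE; edgeR adjusted p = 0.713), and the interval, 0.740 to 1.15 times WT, is the narrowest of the 7. Its neighbour Slc3a2, the heavy chain of amino acid transporters, was at 0.06 ± 0.34 (adjusted p = 0.954), and Wdr74, a ribosome assembly factor gene nearby, was at 0.08 ± 0.12 (adjusted p = 0.763).

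Snhg12 came closest to a difference. It stood at 19.9, 23.7, 25.5 and 31.4 CPM in cKO replicates 1 to 4 and at 33.6, 25.4, 35.1 and 36.0 CPM in WT replicates 1 to 4. Of the WT libraries, 3 lay above every cKO library, while WT replicate 2 lay within the cKO range. The means were 25.1 ± 4.76 and 32.5 ± 4.83 CPM (SD, n = 4 each), and the fitted cKO level was 77.3% of WT. The log2 fold change of -0.37 ± 0.16 (SE) had an unadjusted p of 0.0442 and an edgeR adjusted p of 0.254, and the exact permutation p was 0.0857. Its 95% interval spans 0.602 to 0.992 times WT. Trnau1ap, the selenocysteine tRNA factor gene beside it, was at -0.30 ± 0.17 (adjusted p = 0.365).

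Dancr, known as a lncRNA that keeps epidermal progenitors undifferentiated, stood at 15.3, 20.8, 13.7 and 14.5 CPM in cKO replicates 1 to 4 and at 22.6, 12.9, 15.7 and 13.2 CPM in WT replicates 1 to 4. Each genotype had a single library above 20 CPM. The log2 fold change was 0.00 ± 0.21 (SE; edgeR adjusted p = 0.996), with an interval of 0.719 to 1.38 times WT. Its neighbour Usp46, a deubiquitinase gene, was at 0.01 ± 0.11 (adjusted p = 0.968).

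Of the 7 lncRNAs, the profile of Snhg1 was the most alike to those of Gas5 and Snhg12. Over the 8 libraries, the root mean square difference between centred log2 CPM profiles, where 0 means the same pattern, was 0.13 between Gas5 and Snhg1 and 0.16 between Snhg1 and Snhg12. These were the smallest of 21 pairs, and the largest was 0.54, between Malat1 and Kcnq1ot1. The next pair, Gas5 with Snhg12, stood at 0.27, close to Neat1 with Dancr at 0.28. Gas5 and Snhg1 also deviated least of the 7 from their own means (root mean square 0.20 for each), which favours small differences.

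Ratios within a library do not depend on how libraries are scaled. The FPKM of Gas5 was 8.55, 7.68, 7.48 and 7.85 times that of Snhg12 in cKO replicates 1 to 4, and 6.64, 6.04, 5.14 and 5.04 times in WT replicates 1 to 4. All cKO ratios lay above all WT ratios, by 1.39-fold on average. The FPKM of Snhg1 was 4.80 to 5.66 times that of Snhg12 in cKO and 4.06 to 4.70 times in WT, again without overlap. The ratio of Gas5 to Snhg1 was 1.40 to 1.56 in cKO and 1.19 to 1.41 in WT and overlapped. The exact permutation p of the first 2 ratios was 0.0286, two-sided and the smallest possible, and 0.3 when adjusted over the 21 pairs by the Benjamini-Hochberg method. Of the 21 pairs, 2 did not overlap between genotypes, while 12.9% of the 98049006 pairs of tested genes did not, so the count for these lncRNAs is near the background.

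**Figure D3:**
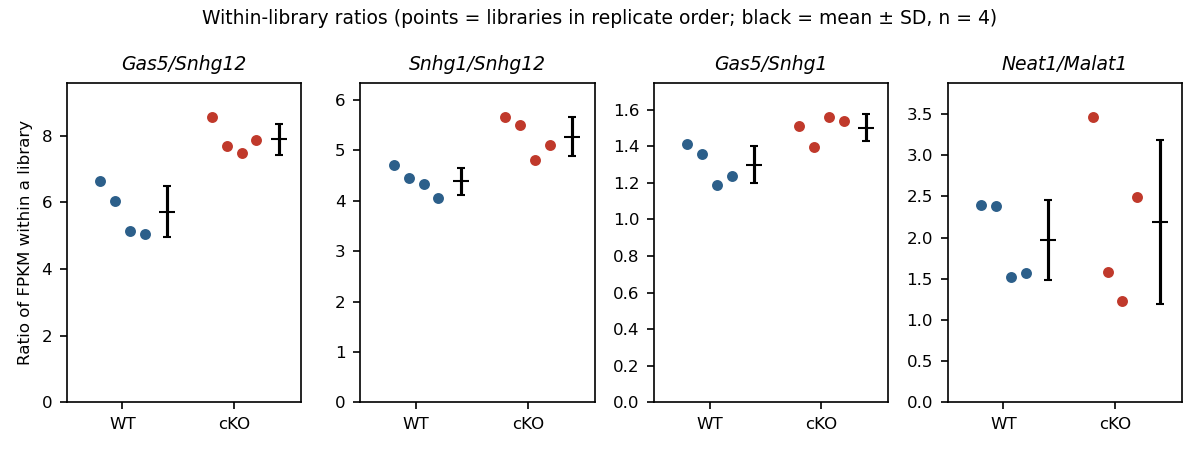
Ratios of FPKM within each library, blue for WT and red for cKO, with mean ± SD of 4 in black. Gas5 over Snhg12 runs from 7.48 up in cKO and up to 6.64 in WT, and Snhg1 over Snhg12 does not overlap either, a share of the 21 pairs near the 12.9% of all gene pairs, while Neat1 over Malat1 overlaps.

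The genes with the profile nearest to each lncRNA were sought among named genes averaging 4 CPM or more, with gene models and pseudogenes left out. For Dancr the nearest was another snoRNA host, Snhg20 (root mean square difference 0.15 in log2 CPM over 8 libraries), followed by the galectin gene Lgals7 (0.16) and the nucleosome-binding gene Hmgn3 (0.17). Snhg12 was nearest to the nucleoporin-associated gene Ahctf1 (0.07), then to the mitochondrial RNA factor genes Fastkd3 (0.09) and Trmt10c (0.10). Snhg1 was nearest to Nae1 (0.09), Haus3 (0.09) and Prpf4 (0.09), and Gas5 to Uqcc5 (0.09), Paxbp1 (0.10) and Rnf168 (0.10).

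For Malat1 the nearest profiles were those of Sgsm2 (0.09), Tspan5 (0.10) and N4bp3 (0.10). Kcnq1ot1 was nearest to the nucleotide kinase gene Nme1 (0.14), the replication licensing inhibitor gene Gmnn (0.16) and the RNA helicase gene Ddx39a (0.18). Neat1 had no profile nearer than 0.15, those of Rundc3a (0.15), Klrg2 (0.16) and Diaph3 (0.16), compared with its own root mean square deviation of 0.31. Neat1 was not alone in this. The own deviation was 0.28 for Dancr, 0.20 for Gas5 and 0.20 for Snhg1, beside nearest profiles at 0.15, 0.09 and 0.09. None of the 21 nearest genes was called between genotypes, and the distances describe these libraries without a test.

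Among 17 other snoRNA host lncRNAs, all tested, 1 fell and 0 rose, where 0.65% of tested genes fell and 0.671% rose. A positive log2 fold change was found for 10 and a negative one for 7 (median 0.07). An unadjusted p below 0.05 was found for 1, against 18.6% of all tested genes. The member that fell was Snhg11, an lncRNA best known from neurons. It stood at 1.59, 1.26, 1.74 and 0.952 CPM in cKO replicates 1 to 4 and at 3.67, 3.54, 3.80 and 2.65 CPM in WT replicates 1 to 4, from 40 to 140 reads. All cKO libraries lay below all WT libraries, and the level fell 2.46-fold (-1.30 ± 0.26 SE on the log2 scale, edgeR adjusted p = 0.0461). The call was lost when any of the 8 libraries was left out (adjusted p from 0.0537 to 0.113), and also with library sizes only (0.0534) or on log2(FPKM + 1) without a filter (0.0770). DESeq2 kept it (adjusted p = 2.54e-05), as did limma-voom (0.0471). The most abundant others were Zfas1 (0.24 ± 0.17, adjusted p = 0.487) and Snhg3 (-0.21 ± 0.18, adjusted p = 0.577).

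Of 27 other lncRNAs listed as nuclear or imprinted, 22 were in the deposited counts and 14 passed the count filter. The 14 include the cytoplasmic Norad, so the counts below are not of nuclear or imprinted RNAs alone. Xist did not pass it, with 0 to 4 reads per library. Of the 14 tested, 1 rose and 0 fell, where 0.671% of all tested genes rose and 0.65% fell. Log2 fold changes were positive for 5 and negative for 9 (median -0.14). An unadjusted p below 0.05 was found for 3, against 18.6% of all tested genes. Dleu2, the host of the miR-15a and miR-16-1 cluster, rose 2.58-fold. It stood at 2.44, 1.90, 1.79 and 2.26 CPM in cKO replicates 1 to 4 and at 0.891, 0.912, 0.805 and 0.642 CPM in WT replicates 1 to 4 (log2 fold change 1.37 ± 0.25 SE, edgeR adjusted p = 0.0362), from 24 to 95 reads. The call held in 1 of the 8 fits that left out a library, the fit without cKO replicate 2 (adjusted p = 0.0348), and the other adjusted p ran up to 0.111. It was lost on log2(FPKM + 1) without a filter (adjusted p = 0.0599) and kept by DESeq2 (1.64e-05) and limma-voom (0.0409).

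The abundant Norad (0.07 ± 0.08, edgeR adjusted p = 0.684), a cytoplasmic lncRNA that binds Pumilio proteins, and Tug1 (-0.11 ± 0.11, adjusted p = 0.649) did not pass. Named here after their values were seen are H19 and Firre. H19, the imprinted host of miR-675, stood at 9.67, 1.65, 1.23 and 7.26 CPM in cKO replicates 1 to 4 and at 22.7, 25.3, 13.2 and 20.3 CPM in WT replicates 1 to 4. The genotypes did not overlap, but the fitted 4.11-fold lower level did not pass the test (-2.04 ± 0.60, edgeR adjusted p = 0.119; 0.0454 by DESeq2). Firre, a nuclear lncRNA known to bind hnRNP-U, stood at 29.9, 39.5, 61.0 and 31.7 CPM in cKO replicates 1 to 4 and at 40.7, 41.2, 60.2 and 41.3 CPM in WT replicates 1 to 4. The log2 fold change of Firre was -0.18 ± 0.23 (SE, edgeR adjusted p = 0.738).

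**Figure D4:**
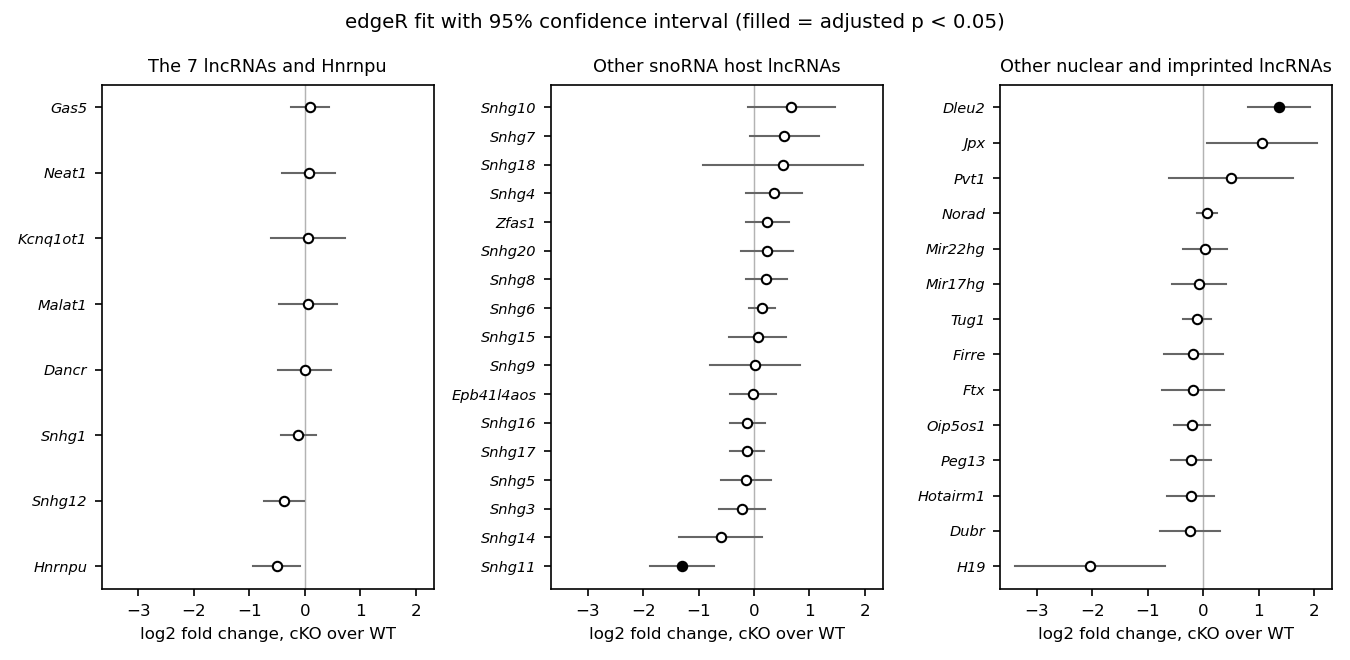
Log2 fold change, cKO over WT, with its 95% confidence interval from the edgeR fit for the 7 lncRNAs with Hnrnpu and for the other tested lncRNAs, filled where the adjusted p was below 0.05. Snhg11 and Dleu2 are the filled points, at -1.30 and 1.37, and all 7 lncRNAs lie between -0.37 and 0.10.

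The protein partners of these RNAs gave 0 calls by edgeR in each of the following groups. Over all tested genes, edgeR called 1.32%, DESeq2 called 8.1%, and 18.6% had an unadjusted p below 0.05. Of 15 paraspeckle proteins, which assemble on Neat1, 8 had a positive and 7 a negative log2 fold change (median 0.03) and 3 an unadjusted p below 0.05, while DESeq2 called 2. The core paraspeckle protein gene Sfpq was at -0.12 ± 0.11 (SE; adjusted p = 0.584) and Hnrnpk at -0.11 ± 0.09 (adjusted p = 0.527). Of 18 snoRNP proteins and assembly factors, 12 were positive (median 0.08) 0 had an unadjusted p below 0.05 and DESeq2 called 0. Fbl, the rRNA methyltransferase fibrillarin, was at 0.32 ± 0.19 (adjusted p = 0.411) and Nhp2 at -0.03 ± 0.12 (adjusted p = 0.923).

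Of 18 nonsense-mediated decay factors, 10 were positive (median 0.01), 2 had an unadjusted p below 0.05 and DESeq2 called 2. The helicase gene Upf1 was at -0.16 ± 0.09 (SE; edgeR adjusted p = 0.375) and the kinase gene Smg1 at 0.01 ± 0.13 (adjusted p = 0.982). Of 21 nuclear RNA decay factors 20 were tested, 14 of them negative (median -0.05) and 4 with an unadjusted p below 0.05, while DESeq2 called 2. The nuclear exonuclease gene Xrn2 was at -0.26 ± 0.09 (adjusted p = 0.169) without overlap of the genotypes, and the nuclear poly(A)-binding protein gene Pabpn1 at 0.14 ± 0.11 (adjusted p = 0.515).

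Of 35 protein-coding snoRNA hosts edgeR called 0, with 18 positive and 17 negative log2 fold changes (median 0.01), 2 at an unadjusted p below 0.05 and 0 called by DESeq2. The translation elongation factor gene Eef2 was at 0.23 ± 0.15 (SE; edgeR adjusted p = 0.442) and Tpt1 at -0.07 ± 0.12 (adjusted p = 0.817). Many of these genes have near-identical pseudogenes, and the labels do not say how shared reads were assigned. Of 14 immediate early and handling genes, 0 were called by edgeR and 2 by DESeq2, against 1.32% and 8.1% of all tested genes, and 9 were positive (median 0.05). The most abundant were Junb at -0.49 ± 0.26 (adjusted p = 0.349) and Hspa1b at -0.11 ± 0.12 (adjusted p = 0.655).

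The 3 handling genes with an unadjusted p below 0.05, against 18.6% of all tested genes, were named after their values were seen. Atf3, a stress-induced transcription factor gene, stood at 4.37, 1.48, 71.6 and 7.99 CPM in cKO replicates 1 to 4 and at 1.18, 0.498, 2.25 and 2.03 CPM in WT replicates 1 to 4. Fosb, an AP-1 subunit gene, stood at 4.84, 2.66, 117 and 14.1 CPM in cKO replicates 1 to 4 and at 1.89, 1.22, 6.33 and 5.62 CPM in WT replicates 1 to 4. For both genes cKO replicate 3 stood far above the other 7 libraries, and the genotypes overlapped. The log2 fold changes were 3.84 ± 1.15 for Atf3 (SE; edgeR adjusted p = 0.123) and 3.20 ± 1.16 for Fosb (adjusted p = 0.188), and 1.65 and 0.96 without cKO replicate 3. Egr2 stood at 77.2 to 130 CPM in cKO and 28.6 to 55.0 CPM in WT without overlap (1.05 ± 0.24, adjusted p = 0.0600). In the same cKO replicate 3, Neat1, Kcnq1ot1 and Dancr were at their lowest among cKO libraries. Malat1, Gas5, Snhg1 and Snhg12 were not. Neat1 and Dancr, but not Kcnq1ot1, were lower still in WT replicate 4 (753 and 13.2 CPM). How many of all tested genes were lowest in cKO replicate 3 was not counted. The part of handling in those values was not tested.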

How the data were processed

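The authors deposited 2 tables over the same gene symbols, raw counts and FPKM. The submitters' processing notes list HISAT2 and HTSeq; neither they nor the labels give versions, build, gene annotation or strandedness. The length implied by count and FPKM was equal across libraries for 20863 of 20863 genes compared (relative tolerance 1e-04). Samples were grouped by their titles. Counts were filtered with filterByExpr (14004 genes left), scaled with TMM and tested with edgeR 4.0.16 (R 4.3.3, quasi-likelihood, no covariate), with Benjamini-Hochberg adjustment over all tested genes; a call is an adjusted p below 0.05. Standard errors are implied by the F statistic. CPM use TMM factors; depth was 37158621 to 38865722 counts. The members and gene lists were chosen with earlier results of these data known. Named genes are the 7 lncRNAs, Hnrnpu, their neighbours, per list up to 2 called genes per direction and the 2 most abundant others, and the 3 nearest profiles per lncRNA. A gene of the neighbours is not reported here. Of the lists, 0 of the small structural RNAs were tested, and 0 symbols of mitochondrially encoded or histone genes with the prefixes searched were in the table. Checked on simulated counts over 14004 genes for this comparison, edgeR found 57 of the 100 genes given a 2-fold change and 85 of the 100 given a 4-fold change, with 8 of 150 calls false. Replicates of a genotype differed beyond sampling noise (lowest chi-square per degree of freedom 47.9). Alternatives were DESeq2 1.42.0, limma 3.58.1 (voom, and log2(FPKM + 1) or log2(FPKM + 0.1)), other scalings and filters, a replicate block and leaving out each library. The design text counts 4 mice per genotype and the labels do not tie libraries to mice, so p-values measure the spread between these libraries.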

Additional observations from a re-analysis of the deposited data

How the results depend on the processing

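None of the 7 lncRNAs was called under any of the alternatives run, the lowest adjusted p being 0.125 for Snhg12, without cKO replicate 4. Kcnq1ot1 has no value under the FPKM filter. Snhg1 and Snhg12 kept their sign in all 18 alternatives. Log2 fold changes without each library in turn ran from -0.16 to 0.22 for Malat1, -0.063 to 0.23 for Neat1, -0.077 to 0.28 for Kcnq1ot1, -0.024 to 0.21 for Gas5, -0.22 to -0.04 for Snhg1, -0.49 to -0.27 for Snhg12 and -0.13 to 0.21 for Dancr. The sign turned for Malat1 without cKO replicate 2 or WT replicate 4, and for Neat1 without WT replicate 4. It turned for Kcnq1ot1 without cKO replicate 1, cKO replicate 2 or WT replicate 3, and for Gas5 without cKO replicate 4. For Dancr it turned without cKO replicate 1, cKO replicate 3, cKO replicate 4 or WT replicate 1. Dancr turned in 11 of all 18 alternatives, the most of the 7. Dancr, near 0, turned to 0.0044 with limma-voom, 0.042 with library sizes only, 0.011 with the 1 CPM filter, 0.069 on log2(FPKM + 1) with or without a filter and 0.076 on log2(FPKM + 0.1). Kcnq1ot1 turned to -0.022 with limma-voom. Among the other named genes, Nhp2 turned to 0.025 with library sizes only and to 0.021 on each FPKM scale, Smg1 to -0.00041 with limma-voom, -0.0014 without a filter and -2.1e-05 with the replicate block, and Slc3a2 to -0.095, -0.019, -0.032, -0.019 and -0.093 with limma-voom, log2(FPKM + 1), log2(FPKM + 0.1), log2(FPKM + 1) without a filter and the block. Without each library in turn Nhp2 ran from -0.076 to 0.072, Smg1 from -0.079 to 0.11, Tpt1 from -0.12 to 0.0021, Slc3a2 from -0.38 to 0.27 and Usp46 from -0.034 to 0.081. Over 76 other lncRNAs, listed genes and nearest profiles, 1218 of 1348 values kept sign and side of the threshold, and 105 changed sign. The number of genes called was 1294 with DESeq2, 349 without a filter and 19 on log2(FPKM + 1) without a filter, and ran from 8 (without WT replicate 3) to 506 (without cKO replicate 2) when a library was left out; the cause was not tested. The ratios of Gas5 and Snhg1 to Snhg12 had a log2 difference of 0.42 to 0.55 and 0.23 to 0.31 without each library. These fits were added after seeing the data. As neither ratio overlapped between genotypes, leaving out a library could not turn the sign, and both ratios share Snhg12. Whether replicate numbers pair the libraries was not settled by correlating deviations from the group means. The correlations were -0.10, 0.13, 0.10 and 0.19 for numbers 1 to 4, and 2 of 4 numbers correlated best with themselves. The replicate block gave 216 calls against 185, left all 7 lncRNAs uncalled with Dancr at 0.014, and Snhg11 and Dleu2 at adjusted p of 0.0534 and 0.0778. Kcnq1ot1 had 54 to 116 reads per library, the fewest of the 7.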
